A study of Mus musculus with 12 samples.

Results

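The genes that make and move the transmitters glutamate and GABA were followed across nuclei of the mouse cortex at postnatal day 21. The set has 9 members, picked by symbol from the 55335 genes of the count matrices, and all 9 were found. They are the vesicular glutamate transporters Slc17a7, Slc17a6 and Slc17a8, the GABA synthesis enzymes Gad1 and Gad2 with the vesicular GABA transporter Slc32a1, the GABA uptake transporter Slc6a11, and the glutamate uptake transporters Slc1a2 and Slc1a3. Single-nucleus RNA sequencing covered 12 animals aged 21 days from the C57BL/6-Myt1l em1Jdd/J line, which was crossed with C57BL/6 J mice. There were 6 WT and 6 Het mice, and each genotype had 3 males and 3 females. Het animals carried 1 frameshift allele of Myt1l (S710fsX), a neuronal zinc finger transcription factor, in all cells. Every animal of both genotypes had received AAV9 with calling cards constructs, one of them carrying tdTomato, as a newborn pup. Animals of this age were prepared in parallel on the same plates, so plate and genotype were not confounded. The study asked how the loss of 1 copy of Myt1l changes transcription in each cell type of the young cortex.

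Neurons load glutamate into synaptic vesicles with the transporters VGLUT1, VGLUT2 and VGLUT3, the products of Slc17a7, Slc17a6 and Slc17a8. Inhibitory neurons make GABA from glutamate with the enzymes GAD67 and GAD65, from Gad1 and Gad2, and load it with VGAT, from Slc32a1. After release, glutamate is cleared mainly by the astrocytic transporters GLT-1 and GLAST, from Slc1a2 and Slc1a3, and GABA by transporters that include the astrocytic GAT3, from Slc6a11.

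After limits on UMIs, genes, mitochondrial UMIs and complexity (log genes over log UMIs) and the removal of doublets, 33112 nuclei were kept, 14343 from WT and 18769 from Het animals, with 1551 to 4413 nuclei per animal and a median of 2976 to 3398 UMIs per nucleus. They comprised 21040 excitatory and 8637 inhibitory nuclei. The members were kept out of the genes used for clustering and doublet scoring and out of the marker lists. They were not kept out of the 10 leading genes of a cluster that the naming rule read, where Slc1a2 stood for the astrocyte-like and Slc1a3 for 1 L2/3 IT-like and 2 Meis2 GABA-like clusters. Cell types carry the ending -like because clusters took their names from marker lists. Levels are in CPM, the counts summed per animal and cell type and scaled to a common total, and they are not corrected for transcript length, so genes are not ranked against each other. No cell barcode was shared between animals. The mix of nuclei differed between animals, which gave between 10 and 308 Meis2 GABA-like nuclei and between 0 and 29 mitral/tufted-like nuclei each. The share of nuclei that were excitatory was 64.5% ± 6.88 in WT and 61.4% ± 4.07 in Het (SD, n = 6 each, exact permutation test, two-sided, p = 0.390, adjusted p = 0.535 over 4 classes). The inhibitory share was 25.5% ± 3.81 and 26.8% ± 2.71 (exact permutation test, p = 0.535, adjusted p = 0.535). In sums over all nuclei, fewer nuclei of a type and less RNA per nucleus cannot be told apart. Myt1l itself ranged from 830.3 to 947.3 CPM in WT and from 927.2 to 1008 CPM in Het over all nuclei, which does not check the genotype because a frameshift need not lower the transcript (log2 fold change 0.13 ± 0.05 SE, edgeR adjusted p = 0.693).

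In mm10, Gad2 (chr2:22622205-22693874), Gad1 (chr2:70553072-70602014), Slc1a2 (chr2:102658659-102790784) and Slc32a1 (chr2:158610767-158615748) lie on chromosome 2. Slc17a7 (chr7:45163949-45176142) and Slc17a6 (chr7:51622006-51671119) lie on chromosome 7, Slc6a11 (chr6:114131241-114249952) on chromosome 6, Slc17a8 (chr10:89574020-89621253) on chromosome 10 and Slc1a3 (chr15:8634124-8710764) on chromosome 15. Slc17a8 and Slc1a3 are on the minus strand. The 250 bases upstream of a start are shown for Slc1a3, the member that passed the genotype test, and for Slc17a7, the member with the next smallest p in excitatory nuclei. They come from RefSeq (GRCm38.p6) and are written 5′ to 3′ on the strand of the gene, with matches to AAGTT, the core of the motif that MYT1 family zinc fingers are known to bind, in capitals on either strand. The Slc1a3 window is chr15:8710808-8711057 and the Slc17a7 window chr7:45163671-45163920.
Slc1a3: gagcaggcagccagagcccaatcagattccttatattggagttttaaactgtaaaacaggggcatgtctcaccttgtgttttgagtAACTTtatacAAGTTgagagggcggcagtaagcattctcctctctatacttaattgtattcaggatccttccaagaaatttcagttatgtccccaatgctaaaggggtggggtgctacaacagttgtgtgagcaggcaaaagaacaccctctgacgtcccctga
Slc17a7: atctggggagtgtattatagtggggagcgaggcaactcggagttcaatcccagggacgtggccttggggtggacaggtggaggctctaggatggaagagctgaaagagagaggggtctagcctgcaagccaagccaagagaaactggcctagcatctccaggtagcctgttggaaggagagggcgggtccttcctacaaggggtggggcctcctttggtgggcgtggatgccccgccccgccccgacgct
The Slc1a3 window held 2 matches and the Slc17a7 window 0. All 9 members were found in the RefSeq table, with 11 windows, and 5 of the 11 held a match. Of all 32851 windows, 11607 (35.3%) held one. A match of 5 letters is a description of the sequence and not a bound site.

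Slc17a7, which encodes VGLUT1, the main vesicular glutamate transporter of cortical neurons, was detected throughout the excitatory types. Its mean level lay between 103 CPM ± 19.1 in L5 NP-like and 160 CPM ± 41.7 in L6 IT-like nuclei (SD over 12 animals). L6 CT-like nuclei had 150 CPM ± 29.4, L2/3 IT-like 135 CPM ± 20.1, L4/5 IT-like 121 CPM ± 17.9 and DG-like 109 CPM ± 21.6. Neighbours in this order of 10 excitatory types lay within their SD of each other. The next type below was VLMC-like at 18.0 CPM ± 24.7 (n = 7), so a clear step separated the excitatory types from the other 16. The types were described and not tested against each other, since clusters of the same nuclei define them.

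Slc17a6, the gene of VGLUT2, the form used mostly by subcortical neurons in the adult, was more selective. It stood at 105 CPM ± 25.1 in mitral/tufted-like nuclei (n = 6), which belong to the olfactory bulb, and at 59.8 CPM when the upper limits and the complexity limit were dropped together. Nuclei added in this way had no doublet scores and took their cluster from the nearest kept nuclei. L5 NP-like (43.1 CPM ± 13.8), CLA/Car3 IT-like (41.3 CPM ± 21.3) and L4/5 IT-like nuclei (38.7 CPM ± 8.11, and 21.9 CPM without these limits) followed and did not differ beyond their SD (n = 12 each). The remaining excitatory types had 14.1 CPM or less, down to 4.22 CPM ± 2.67 in L6 CT-like and 1.65 CPM in L6 IT-like nuclei. A 48-nucleus Cajal-Retzius-like cluster, with 10 or more nuclei in 1 animal, held 280.4 CPM when its animals were pooled. An unnamed excitatory cluster of 574 nuclei led by Tshz2 and Chrm2 held 94.1 CPM. Among inhibitory types, STR-PAL Chst9-like nuclei had 1.39 CPM ± 4.38 (n = 10). Their level was 38.8 CPM with the members among the clustering genes and 37.9 CPM with 30 principal components, so it turned with the clustering.

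Slc17a8, the gene of VGLUT3, a transporter found in neurons that also release other transmitters, was low in most types. Sncg-like interneurons had 26.4 CPM ± 27.2 and L5 NP-like nuclei 22.6 CPM ± 15.4 (n = 12 each), and all other types stayed at or below 5.38 CPM, the level of ependymal/choroid-like nuclei (n = 3), which was 20.2 CPM without doublet removal. The Sncg-like level rested on 24 counts and was 55.7 CPM without the upper limits and the complexity limit. The L5 NP-like level came from 1 of its 2 clusters. The cluster led by Grik1 and Vwc2l (832 nuclei) had 36.0 CPM ± 23.1, and the cluster led by Gm49906 and Tshz2 (578 nuclei) had 1.24 CPM ± 3.19. Slc17a6 was at 34.9 CPM ± 14.9 in the first and 56.2 CPM ± 23.6 in the second (SD, n = 12 each), so the clusters overlapped for it.

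Slc32a1, the vesicular GABA transporter, was above the other types in all 9 inhibitory types. Meis2 GABA-like nuclei had 47.1 CPM ± 22.0 and STR D2-like nuclei 19.9 CPM ± 19.8, with the others between them and each neighbour within its SD (n = 12, with 10 for STR-PAL Chst9-like). The highest type that is not inhibitory was microglia-like at 6.08 CPM ± 9.5 (n = 6). With the members among the clustering genes this type was at 21.6 CPM, above STR D2-like (21.5 CPM) and STR-PAL Chst9-like nuclei (19.4 CPM), so the order turned there.

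Gad1, the gene of GAD67, ranged widely among inhibitory types. Lamp5-like (597 CPM ± 59.2) and Meis2 GABA-like nuclei (490 CPM ± 123) were highest and within 1 SD of each other. Sncg-like, Pvalb-like and Vip-like nuclei followed at 353.5, 341 and 326 CPM. A step then led down to STR-PAL Chst9-like (192 CPM ± 43.8), STR D2-like (162 CPM ± 55.9) and Sst-like nuclei (136 CPM ± 18.6), with STR D1-like nuclei lowest at 94.9 CPM ± 26.7. STR-PAL Chst9-like nuclei had 108 CPM of Gad1 with 30 principal components and 110.2 CPM with the members among the clustering genes, so their place above Sst-like nuclei turned with the clustering. Outside inhibitory neurons, Gad1 stood at 83.2 CPM ± 40.4 in OPC-like nuclei (n = 11) and 56.2 CPM ± 15.9 in DG-like nuclei (n = 12), the granule cells of the dentate gyrus. The other excitatory types had at most 11.3 CPM.

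Gad2, the gene of GAD65, peaked in Lamp5-like nuclei at 1208 CPM ± 90.4. The other inhibitory types ran from 435.0 CPM ± 110 in Sncg-like to 223 CPM ± 33.2 in Pvalb-like nuclei, each neighbour within its SD. Unlike Gad1, it was near the level of other types in OPC-like (7.52 CPM ± 14.2, and 23.7 CPM without the upper and complexity limits) and DG-like nuclei (6.34 CPM ± 6.07). STR-PAL Chst9-like nuclei, at 231 CPM ± 41.9, lay within the SD of Pvalb-like nuclei and below them with 30 principal components (204 against 262 CPM) and with the members among the clustering genes (201 against 212 CPM). Microglia-like nuclei held 50.7 CPM ± 47.4 of Gad2 and 65.0 CPM ± 55.4 of Gad1 (n = 6), so both enzyme genes were detected in a class that should lack them. Microglia-like Gad1 was 263 CPM and Gad2 144 CPM when the members were among the clustering genes.

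The 3 uptake transporters were highest in astrocyte-like nuclei, a small class of 163 nuclei in which 8 animals had 10 or more. Slc6a11 was at 274 CPM ± 88.5 there, against 33.7 CPM ± 13.6 in Lamp5-like nuclei, the next type. Slc1a2 was at 13250 CPM ± 1501 in astrocyte-like nuclei. It was also present in every excitatory type, with 905 CPM ± 95.5 in L6 CT-like, 735.5 CPM ± 55.6 in L5 NP-like and 682.5 CPM ± 67.4 in L4/5 IT-like nuclei, and then 360.0 CPM ± 137 in CLA/Car3 IT-like nuclei. Among inhibitory types it fell from 228 CPM in Vip-like to 29.4 CPM in Sst-like and 13.3 CPM in Pvalb-like nuclei, which were 49.3 and 45.5 CPM without the upper limits and the complexity limit. Slc1a3 was at 3830 CPM ± 584 in astrocyte-like nuclei (n = 8), followed by ependymal/choroid-like (336 CPM ± 115, n = 3), OPC-like (242 CPM ± 61.7, n = 11) and microglia-like nuclei (236 CPM ± 116, n = 6). Of the neurons, Meis2 GABA-like nuclei had the highest Slc1a3, at 154 CPM ± 92.5, and most excitatory types had under 10 CPM.

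**Figure D1:**
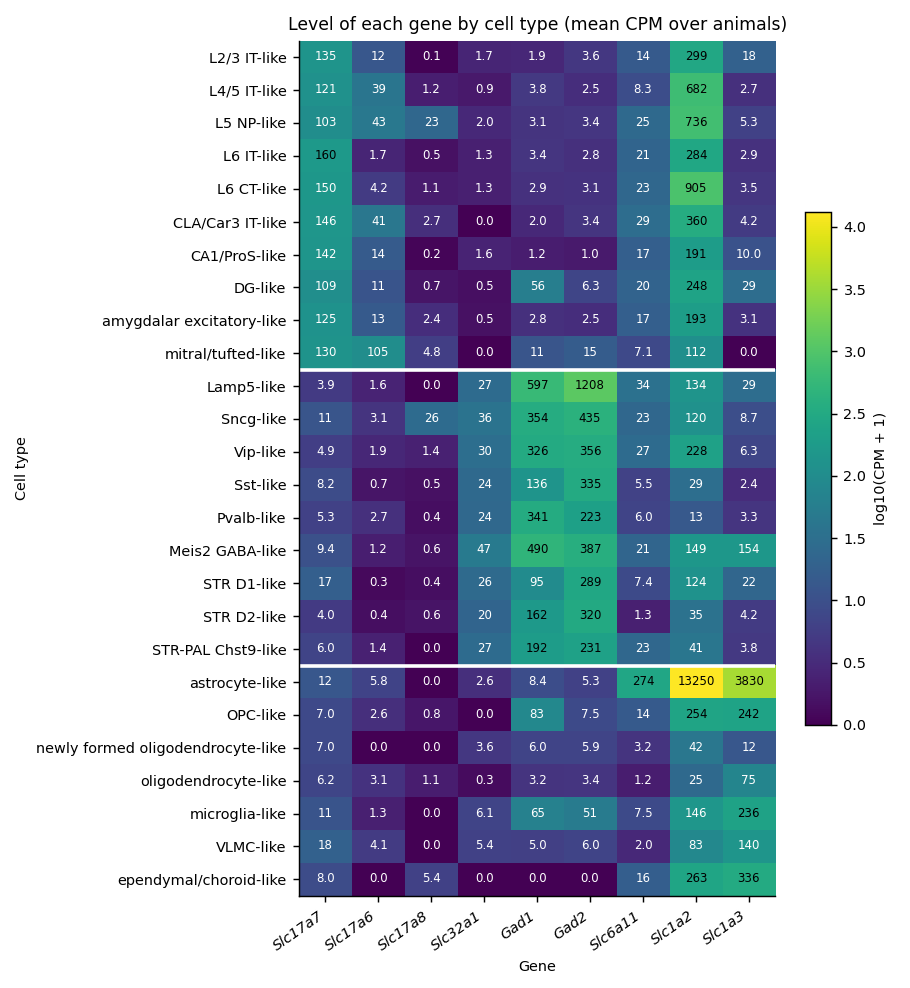
Mean level of each member (columns) in 26 cell types (rows, excitatory, inhibitory and non-neuronal blocks split by white lines), colour as log10(CPM + 1) and CPM printed in each cell, averaged over the animals with at least 10 nuclei of the type. Slc17a7 fills the excitatory block (103 to 160 CPM), Gad1 and Gad2 the inhibitory block, and Slc1a2 reaches 13250 CPM in astrocyte-like nuclei.

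Likeness of pattern was measured as Pearson's r of log2(CPM + 5) across 26 cell types, which share libraries and depth, among the genes reaching 50 CPM in some type. The genes most like Slc17a7 were Nrn1 (r = 0.912), Nptx1 (0.886) and Sv2b (0.877). Slc17a6 was most like Slc17a7 itself (r = 0.735), and Slc17a8 had no close match (Scai, r = 0.600). Gad2 was most like Dlx6os1 (r = 0.973), Gm14204 (0.972) and Gad1 (0.938). Gad1 was most like Dlx6os1 (r = 0.957) and Slc32a1 most like Gad2 (r = 0.953). Slc6a11 was most like Sin3b (r = 0.825), Slc1a2 like Slc6a11 (0.796) and Slc1a3 like the complement gene C4b (0.904). Nrn1, Sv2b and Dlx6os1 were among the markers that named the types, so their patterns are not independent of the names.

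Detection in single nuclei was read after thinning every nucleus to 1500 UMIs. With at least 1 UMI of Slc17a7, Slc17a6 or Slc17a8, 20.6% of excitatory nuclei were positive (39.1% unthinned), and with Gad1, Gad2 or Slc32a1, 58.8% of inhibitory nuclei (78.3% unthinned). The opposite kind was found in 1.33% of excitatory nuclei for the GABA genes (2.76% unthinned) and in 1.84% of inhibitory nuclei for the glutamate genes (3.95% unthinned). The median depth before thinning was 3278 UMIs in excitatory and 3202 in inhibitory nuclei. Oligodendrocyte-like nuclei, which should lack both kinds, gave 0.855% for the GABA genes and 1.14% for the glutamate genes at a median of 2480 UMIs. Both opposite shares were thus above the oligodendrocyte-like background by less than 1 percentage point. Microglia-like nuclei, the other planned background, gave 11.7% for the GABA genes and 0.781% for the glutamate genes (128 nuclei, median 2704 UMIs). The GABA share of excitatory nuclei lay below that value. Without DG-like nuclei the GABA genes were found in 1.02% of excitatory nuclei, and without an unnamed cluster led by Rmst and Tshz2 the glutamate genes in 1.27% of inhibitory nuclei. That cluster was picked, outside the plan, as the inhibitory cluster with the highest Slc17a6 level. A lower glutamate share without it follows from this choice.

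Both kinds of gene met in 1 nucleus about as often as the product of their single shares within each animal. Among excitatory nuclei 55 had both, against 56.5 from the product. Among inhibitory nuclei 69 had both, against 93.5, and the gap came from that cluster led by Rmst and Tshz2, with 511 nuclei. This cluster, picked by its Slc17a6 level, held that gene at 66.8 CPM ± 41.2 and Gad2 at 159 CPM ± 62.9 (SD, n = 11). Only 5 of its nuclei had both kinds, against 15.0 from the product. By genotype, Gad2 there was 120 CPM ± 58.1 in 6 WT and 205.8 CPM ± 25.7 in 5 Het animals. Its highest WT and lowest Het values were both 190.8 CPM at the precision given. Slc17a6 there was 84.1 CPM ± 44.4 in WT and 46.1 CPM ± 28.3 in Het, with overlap and no Het animal above the WT median. These differences were seen in the values of the cluster and were not tested. Its glutamate genes were found in 10.96% and its GABA genes in 26.2% of nuclei. Without it, 64 inhibitory nuclei had both kinds, against 62.7. In unthinned neurons both kinds met in 1.39% of the kept nuclei, in 5.00% of those removed as doublets and in 4.33% of those above the upper limits or under the complexity limit, whose median depth was 7648 UMIs against 3257 in the kept neurons. The part of doublets in the kept nuclei with both kinds was not tested, and nuclei outside the limits had no doublet scores.

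DG-like granule cells stood out among excitatory types by Gad1, which is known to be made at low level by these glutamatergic cells. Gad1 was found in 66 of 831 nuclei, or 7.94% (95% Wilson interval 6.29 to 9.98, which covers counting error only), and in 3.57% to 12.2% per animal. The unthinned share was 15.0% at a median of 3173 UMIs, against 0.784% unthinned and 0.427% thinned in oligodendrocyte-like nuclei. Slc17a7 and Gad1 met in 11 nuclei, against 10.9 from the product. OPC-like nuclei had Gad1 in 54 of 480, or 11.3% (Wilson interval 8.73 to 14.4), at a median of 2228 UMIs. In microglia-like nuclei the GABA genes were found in 11.7% of 128 nuclei, so a share of this size also occurred in a class that should lack them. Gad1 was found in 6.25% and Gad2 in 7.03% of microglia-like nuclei. In DG-like nuclei Gad1 was at 7.94% and Gad2 at 0.842%, and in OPC-like nuclei they were at 11.3% and 1.25%.

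Pairs within 1 kind were counted in the same way. Slc17a7 and Slc17a6 met in 98 excitatory nuclei, against 103 from the product. Gad1 and Gad2 met in 1219 inhibitory nuclei, against 1084, and in 10 excitatory nuclei, against 0.734. Within the 9 inhibitory types Gad1 with Gad2 lay between 0.697 times the product in STR D1-like and 1.105 times in STR D2-like nuclei, with 312 against 317 in Lamp5-like and 110 against 110.0 in Vip-like nuclei. Slc17a8 was found in 2.86% of Sncg-like nuclei and met a GABA gene in 5 nuclei, against 5.05. All 7 Sncg-like nuclei with Slc17a8 after thinning came from 3 of the 6 Het animals (4.02% ± 4.52 of nuclei, n = 6). The other Het animals and each of the 6 WT animals had 0%. Het animals gave 151 Sncg-like nuclei and WT animals 94. Slc1a2 and Slc1a3 met in 152 of 163 astrocyte-like nuclei, and Slc6a11 was found in 35.6% of them.

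**Figure D2:**
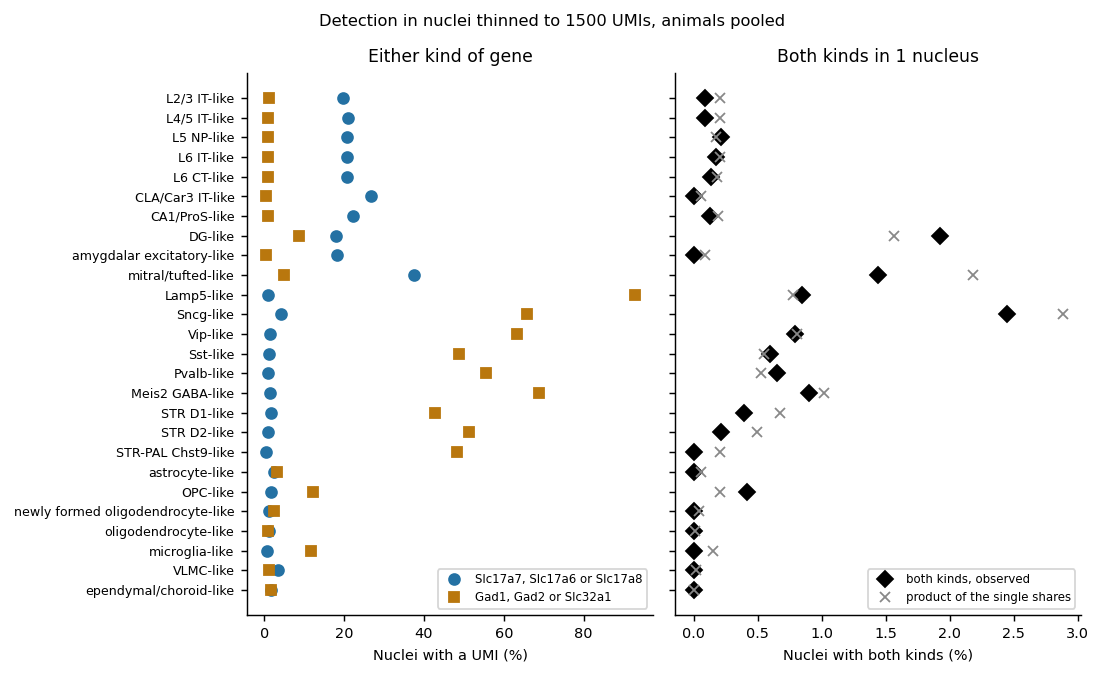
Left, share of nuclei (%) with at least 1 UMI of a vesicular glutamate transporter gene (blue circles) or of Gad1, Gad2 or Slc32a1 (orange squares) in each cell type after thinning to 1500 UMIs, animals pooled. Right, share with both kinds (black diamonds) beside the product of the single shares (grey crosses); DG-like nuclei have GABA genes in 8.66% and both kinds in 16 nuclei against 13.0 from the product.

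The detection shares were then compared between genotypes in 7 exact permutation tests (two-sided, Benjamini-Hochberg adjusted over the 7). GABA genes were found in 1.502% ± 0.773 of WT and 1.23% ± 0.407 of Het excitatory nuclei (SD, n = 6 each, exact p = 0.487, adjusted p = 0.568). Glutamate genes were found in 2.10% ± 0.945 of WT and 1.64% ± 0.431 of Het inhibitory nuclei (exact p = 0.351, adjusted p = 0.491). Both kinds met in 0.465% ± 0.312 of WT and 0.382% ± 0.128 of Het neurons (exact p = 0.597, adjusted p = 0.597). The ranges of the genotypes overlapped in all 3 shares.

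Among pairs, Slc17a7 with Slc17a6 was found in 0.397% ± 0.221 of WT and 0.567% ± 0.101 of Het excitatory nuclei (exact p = 0.123, adjusted p = 0.352), and Gad1 with Gad2 in 13.0% ± 2.27 and 14.8% ± 2.09 of inhibitory nuclei (exact p = 0.201, adjusted p = 0.352). Slc1a2 with Slc1a3 was found in 92.1% ± 2.06 of WT (n = 3) and 97.4% ± 2.46 of Het astrocyte-like nuclei (n = 5). The groups did not overlap, and the exact permutation p over 56 relabellings was 0.0357, with an adjusted p of 0.250. With only 56 relabellings no p can be very small, and at this p the share alone could not pass after adjustment over 7. The same number of relabellings holds for Slc6a11 below. The comparison rests on 139 nuclei, 10 to 32 per animal. Slc6a11 was found in 27.9% ± 15.6 and 39.8% ± 7.82 of them (exact p = 0.196, adjusted p = 0.352).

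Levels were compared between genotypes with edgeR's quasi-likelihood test on sums per animal, adjusted by Benjamini-Hochberg over all genes of each fit and called at an adjusted p under 0.05 with an absolute log2 fold change over 0.2. Of 78 tests of a member in a class or cell type, 1 was called, Slc1a3 in excitatory nuclei. Over all nuclei, 0 of 9 members were called, where 0% of 16648 genes were, and 973 genes had an unadjusted p under 0.05, 1 member among them. Here DESeq2 called 30 genes. In excitatory nuclei 1 of 8 members tested was called, where 0.143% of genes were. Of the 8, 4 had an unadjusted p under 0.05, as did 1089 of all 14001 genes tested. The median log2 fold change was -0.07 for the members and -0.01 for all genes. In inhibitory nuclei 0 of 8 were called, where 0.237% of genes were. There 1 member had an unadjusted p under 0.05, as did 721 of all 11415 genes tested. In 24 cell types, 0 of 53 tests were called, where 0.144% of all tests were. An unadjusted p under 0.05 was reached in 9, and 6 of these were Slc17a7 in types from the same animals. At this p, all genes ran from 41 of 1408 in mitral/tufted-like to 822 of 7865 in L6 CT-like nuclei. DESeq2 called 1 of the members' tests in these types, Slc17a7 in L6 CT-like nuclei, where it called 103 of the 2083 genes given an adjusted p.

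Slc1a3, the gene of GLAST, was low in excitatory nuclei, where 703 counts were summed. WT animals ranged from 10.5 to 13.9 CPM (median 12.2) and Het animals from 6.72 to 9.42 CPM (median 7.74). Every Het animal lay below every WT animal. The log2 fold change was -0.61 ± 0.12 (SE, edgeR adjusted p = 0.0318). The call was lost without any 1 of 6 animals, with edgeR adjusted p of 0.0665 without WT male 3, 0.123 without WT female 3, 0.0738 without Het male 1, 0.0975 without Het male 3, 0.0620 without Het female 2 and 0.0850 without Het female 3, at log2 fold changes from -0.65 to -0.56 over all 12 omissions. When the upper limits and the complexity limit were dropped together, the log2 fold change was -0.26 (edgeR adjusted p = 0.324). In the 36250 excitatory nuclei above the upper limits or under the complexity limit alone, at a median of 7784 UMIs, it was 9.20 CPM ± 1.07 in WT and 8.26 CPM ± 1.27 in Het (exact permutation test, p = 0.184). Nuclei outside these limits were not screened for doublets.

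The counts of Slc1a3 lay in few excitatory clusters. For the values by cluster, and for the nuclei outside the limits above, counts were rounded in each nucleus. Their base therefore differs slightly from the counts summed above. An unnamed cluster led by Dach1 held 31.6% of the Slc1a3 counts, at 76.0 CPM ± 30.4 in WT and 63.9 CPM ± 19.9 in Het. The L2/3 IT-like cluster led by Glis3 and Otof held 17.8%, at 85.4 CPM ± 23.1 and 58.3 CPM ± 20.04, and the DG-like cluster 10.6%, at 41.1 CPM ± 31.4 and 15.7 CPM ± 8.66 (SD, n = 6 each). The mean ± SD ranges of the genotypes overlapped in each of these.

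The cluster led by Dach1 made up 4.62% ± 1.22 of WT and 3.48% ± 1.398 of Het excitatory nuclei. The log2 ratios that follow were computed after the call was seen, on counts rounded in each nucleus. With each animal set to the pooled mix of clusters, the log2 ratio of mean CPM, Het over WT, was -0.51. Without the Dach1 cluster it was -0.61, without both clusters with most counts -0.62, and within those 2 clusters alone -0.41. In L2/3 IT-like nuclei as a whole the log2 fold change was -0.39 ± 0.26 (SE, edgeR adjusted p = 0.707).

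Astrocyte transcripts in excitatory nuclei were set beside this result. The 12 astrocyte markers summed to 199 to 242 CPM in WT and 184 to 249 CPM in Het excitatory nuclei, with 4 of 12 higher in Het and 0 of 12 at 0 (exact permutation test, p = 0.528). Bmpr1b, among these 12, was also a leading gene of an L6 IT-like and of the amygdalar excitatory-like cluster. The sum is therefore not limited to astrocyte transcripts. The median depth of excitatory nuclei was 3079 to 3396 UMIs in WT and 3191 to 3468 in Het animals (exact permutation test, p = 0.292). The part of either in the Slc1a3 result was not tested further.

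**Figure D3:**
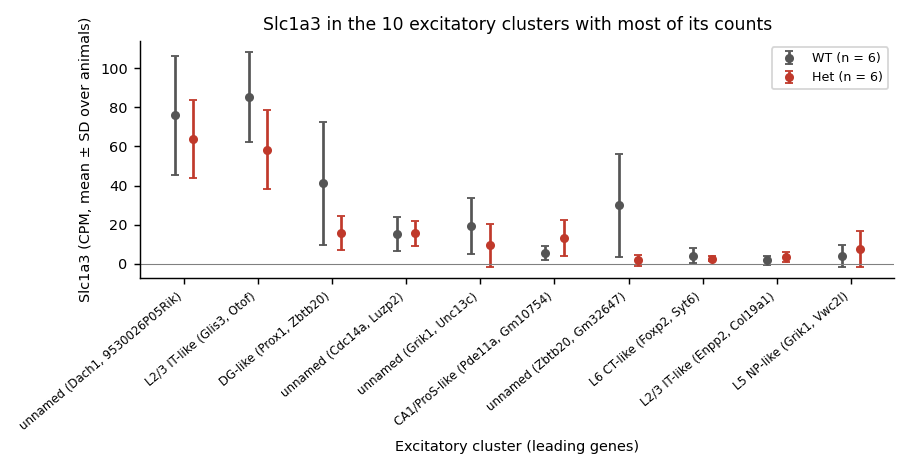
Slc1a3 level (CPM, mean ± SD over 6 WT animals in grey and 6 Het animals in red) in the 10 excitatory clusters with most of its counts, each labelled by name and leading genes. The clusters led by Dach1 and by Glis3 stand highest, at 76.0 and 85.4 CPM in WT and 63.9 and 58.3 CPM in Het.

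In its main cell type Slc1a3 gave no such difference. Astrocyte-like nuclei ranged from 2907 to 4674 CPM in 3 WT and from 3283 to 4463 CPM in 5 Het animals (log2 fold change -0.04 ± 0.17 SE, edgeR adjusted p = 0.996). In inhibitory nuclei WT ranged from 10.8 to 58.2 CPM (median 22.9) and Het from 7.91 to 37.7 CPM (median 19.4). The 95% interval of the log2 fold change there was wide, from -1.13 to 0.56.

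Slc17a7 was higher in Het than WT excitatory nuclei without passing the test. WT animals ranged from 101 to 130.1 CPM (median 124.5) and Het animals from 126 to 166.8 CPM (median 148). The groups overlapped by 1 Het animal, and 6 of 6 Het animals lay above the WT median. The log2 fold change was 0.29 ± 0.07 (SE, edgeR adjusted p = 0.129, and between 0.0747 and 0.352 when each animal was left out). DESeq2 called it, at 0.29 (DESeq2 adjusted p = 0.0327), as did edgeR without a filter on low counts, at 0.30 (adjusted p = 0.00176). Without the upper limits and the complexity limit the log2 fold change was 0.22 and not called (edgeR adjusted p = 0.271). The log2 ratio of mean CPM was 0.31 in the kept excitatory nuclei and 0.19 in those outside the limits alone.

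The fitted difference of Slc17a7 lay above 0 in 9 of 9 excitatory types tested, from 0.15 in amygdalar excitatory-like to 0.56 in CLA/Car3 IT-like nuclei, with 6 of 9 at an unadjusted p under 0.05 and 0 called. The clusters of L5 NP-like nuclei differed in direction. The cluster led by Grik1 and Vwc2l had 93.3 CPM ± 28.9 in WT and 122 CPM ± 22.2 in Het. The cluster led by Gm49906 and Tshz2 had 102 CPM ± 16.3 and 88.5 CPM ± 19.8 (SD, n = 6 each, not tested). L6 CT-like nuclei, where 0.839% of genes were called, ranged from 99.5 to 158 CPM in WT (median 138) and from 145 to 199 CPM in Het (median 174). The groups overlapped at the low end of Het. The difference there was 0.36 ± 0.10 (SE, edgeR adjusted p = 0.0885), and it was called by DESeq2 (0.36, adjusted p = 0.0416), without the filter on low counts (0.40, edgeR adjusted p = 0.0128) and without the upper limits and the complexity limit (0.33, edgeR adjusted p = 0.0463). The types come from the same 12 animals and are not independent.

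Slc17a6 in excitatory nuclei ranged from 13.5 to 21.01 CPM in WT (median 17.2) and from 16.0 to 23.6 CPM in Het (median 21.4). The genotypes overlapped (log2 fold change 0.27 ± 0.12 SE, edgeR adjusted p = 0.566). Slc17a8 ranged from 1.35 to 4.73 CPM in WT (median 3.11) and from 0.742 to 3.68 CPM in Het (median 2.12). They overlapped too (-0.78 ± 0.32 SE, edgeR adjusted p = 0.529). In Sncg-like nuclei, chosen after its values were seen, Slc17a8 fell under the count filter, with 3 counts in 94 WT and 21 in 151 Het nuclei. WT animals there ranged from 0 to 32.4 CPM (median 0) and Het animals from 8.21 to 72.7 CPM (median 53.3). Without the filter the log2 fold change of Slc17a8 was 2.07 ± 0.78 (SE, edgeR adjusted p = 0.640), and in the 723 Sncg-like nuclei found without the upper and complexity limits it was 0.36 ± 0.31 (SE, edgeR adjusted p = 0.969), with medians of 45.4 CPM in WT and 60.7 CPM in Het.

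In L5 NP-like nuclei, also chosen after its values were seen, Slc17a8 lay the other way. WT animals ranged from 8.19 to 59.3 CPM (median 30.7) and Het animals from 3.79 to 24.8 CPM (median 16.9). The groups overlapped, but no Het animal reached the WT median. In the cluster led by Grik1 and Vwc2l it was 47.7 CPM ± 26.5 in WT and 24.3 CPM ± 11.9 in Het (SD, n = 6 each), and after thinning it was found in 3.08% ± 1.48 of WT and 1.596% ± 0.881 of Het L5 NP-like nuclei. The gene fell under the count filter there. Without the filter its log2 fold change was -1.19 ± 0.31 (SE, edgeR adjusted p = 0.186), and without the upper and complexity limits -0.53 ± 0.24 (SE, edgeR adjusted p = 0.634).

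**Figure D4:**
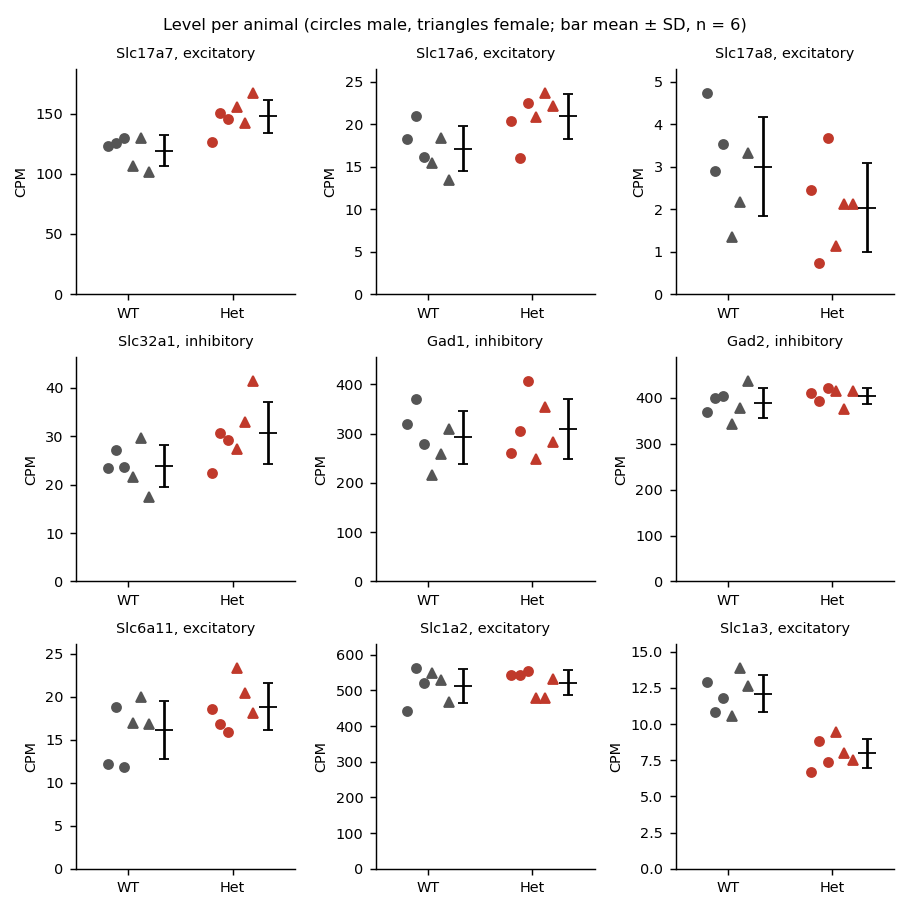
Level (CPM) of each member per animal in excitatory or inhibitory nuclei, as named above each panel; circles are males, triangles females, grey WT and red Het, with bars for the mean ± SD (n = 6). For Slc1a3 the 6 Het animals (6.72 to 9.42 CPM) lie below the 6 WT animals (10.5 to 13.9 CPM), and the other 8 panels overlap.

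None of the GABA genes was called in inhibitory nuclei. Slc32a1 ranged from 17.4 to 29.7 CPM in WT (median 23.5) and from 22.4 to 41.4 CPM in Het (median 29.9). The genotypes overlapped, and the log2 fold change of 0.36 ± 0.14 had a 95% interval from 0.09 to 0.64 (SE, unadjusted p = 0.0166, edgeR adjusted p = 0.5553). Gad1 ranged from 216 to 370.4 CPM in WT (median 294) and from 249 to 408 CPM in Het (median 294), with a difference of 0.07 ± 0.13 (SE, edgeR adjusted p = 0.998). Gad2 ranged from 342 to 437.0 CPM in WT (median 389) and from 374 to 421 CPM in Het (median 412). Its difference of 0.05 ± 0.07 had a 95% interval from -0.09 to 0.18 (edgeR adjusted p = 0.993). Beside these levels, the 12 astrocyte markers in inhibitory nuclei ranged from 299 to 371 CPM in WT and from 313.5 to 461 CPM in Het, all 12 higher in Het (exact permutation test, p = 0.0541). The 11 inhibitory markers ranged from 8416 to 12570 CPM in WT and from 9092 to 10160 CPM in Het, with 4 of 11 higher in Het (exact permutation test, p = 0.0346), and 1 of them was at 0. The part of either in these levels was not tested.

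By cell type, Gad1 was tested in 9 inhibitory types and DG-like nuclei and lay above 0 in 8 of these 10, and Gad2 was tested in 9 and lay above 0 in 4, with 0 called for either. Gad2 in Vip-like nuclei ranged from 241 to 372 CPM in WT (median 312) and from 376 to 433 CPM in Het (median 391). The groups did not overlap, but the difference of 0.30 ± 0.12 was not called (SE, edgeR adjusted p = 0.692). In DG-like nuclei the difference of Gad1 was -0.19 ± 0.25 (SE, edgeR adjusted p = 0.930), and 3.57% to 12.2% of nuclei had it in WT and 4.55% to 9.52% in Het animals.

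The uptake transporters Slc1a2 and Slc6a11 gave no calls. Slc1a2 in excitatory nuclei ranged from 441 to 563 CPM in WT (median 525) and from 479 to 554.6 CPM in Het (median 538). Its log2 fold change of 0.01 had a 95% interval from -0.10 to 0.12 (edgeR adjusted p = 0.991). Among 15 cell types it lay above 0 in 3 and spanned -1.06 to 0.48.

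In astrocyte-like nuclei Slc1a2 ranged from 12300 to 15580 CPM in 3 WT and from 11400 to 13560 CPM in 5 Het animals, which overlapped (-0.25 ± 0.13 SE, edgeR adjusted p = 0.985). Slc6a11 ranged there from 145 to 401 CPM in WT and from 206.5 to 361.5 CPM in Het (-0.05 ± 0.37 SE, edgeR adjusted p = 0.996). In excitatory nuclei Slc6a11 ranged from 11.9 to 19.97 CPM in WT (median 16.9) and from 15.9 to 23.4 CPM in Het (median 18.3), again with overlap (0.23 ± 0.12 SE, edgeR adjusted p = 0.709). With 3 WT animals and 10 to 17 nuclei in each, the astrocyte values rest on few nuclei.

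**Figure D5:**
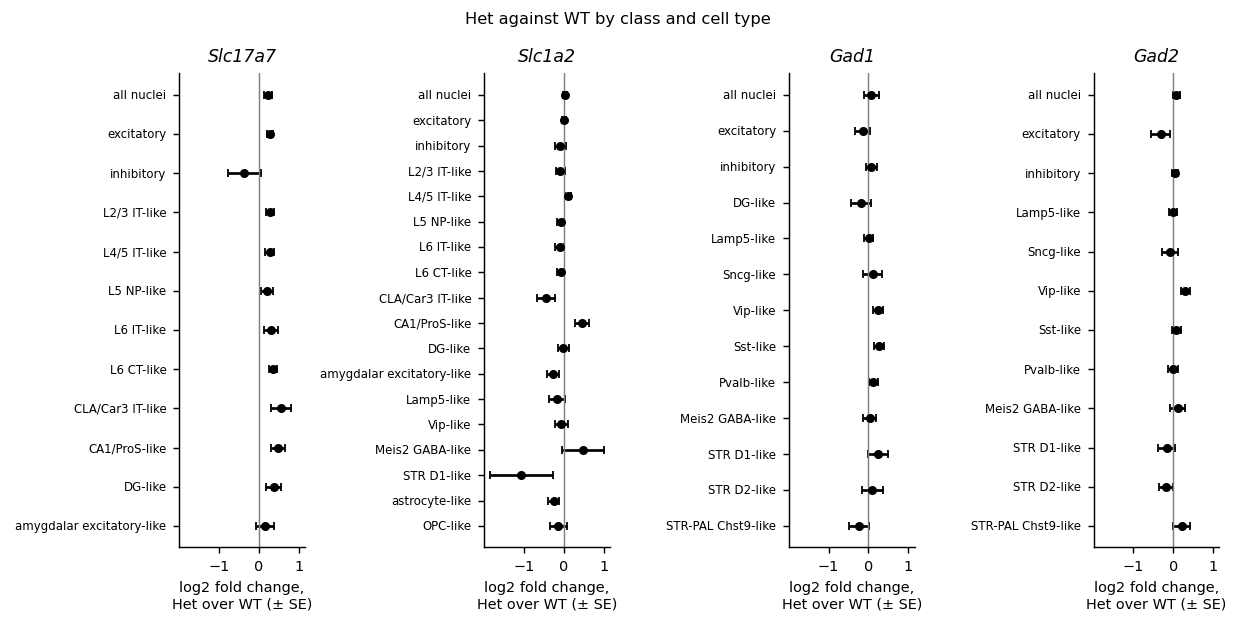
Log2 fold change, Het over WT (points, bars ± SE from edgeR), of Slc17a7, Slc1a2, Gad1 and Gad2 in each class and cell type where the gene was tested; the grey line marks 0. Slc17a7 lies above 0 in 9 of 9 excitatory types (0.15 to 0.56), and Slc1a2 in 3 of 15 types.

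Members outside their usual neurons gave no calls either. In excitatory nuclei Gad1 ranged from 3.94 to 7.56 CPM in WT and from 3.58 to 6.60 CPM in Het (-0.14 ± 0.18 SE, edgeR adjusted p = 0.917), and Gad2 from 1.36 to 5.32 CPM and from 1.955 to 3.65 CPM (-0.31 ± 0.24 SE, adjusted p = 0.819). Slc32a1 was under the count filter there, with medians of 0.774 CPM in WT and 0.819 CPM in Het. All 3 overlapped between genotypes.

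In inhibitory nuclei Slc17a7 ranged from 3.36 to 24.1 CPM in WT and from 4.88 to 8.67 CPM in Het (-0.36 ± 0.41 SE, edgeR adjusted p = 0.973), and Slc17a6 from 3.31 to 9.65 CPM and from 0.407 to 8.91 CPM (-0.45 ± 0.41 SE, adjusted p = 0.953). Slc17a8 was under the count filter, with medians of 1.51 CPM in WT and 2.27 CPM in Het. Slc6a11 differed by -0.20 ± 0.20 and Slc1a2 by -0.08 ± 0.15 (SE, edgeR adjusted p = 0.953 and 0.998). The ranges of the genotypes overlapped for all 5.

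Over all nuclei, where the mix of types enters each sum, the member at an unadjusted p under 0.05 was Slc17a7, at 0.23 ± 0.11 (log2 fold change ± SE, edgeR adjusted p = 0.853). Slc17a8 was at -0.49 ± 0.28 (edgeR adjusted p = 0.903) and the other 7 members lay between 0.03 for Slc1a2 and 0.24 for Slc32a1.

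Genes of the same pathways outside the set were read from a list of 38 transporters and enzymes. Of these, 31 were tested over all nuclei, 26 in excitatory and 24 in inhibitory nuclei, and 0 were called in any (2, 0 and 1 at an unadjusted p under 0.05, edgeR). In cell types, 0 of 189 tests were called. Slc1a1, a neuronal glutamate transporter, differed by 0.07 ± 0.06 in excitatory nuclei (log2 fold change ± SE, edgeR adjusted p = 0.838). Glul, the astrocytic glutamine synthetase, differed by 0.18 ± 0.24 in astrocyte-like nuclei (edgeR adjusted p = 0.985).

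The genotype difference did not pass a test of sex by genotype for any member. Of 78 interaction tests, 5 had an unadjusted p under 0.05 and 0 were called, where 0.0125% of all such tests were. The smallest p was for Slc17a7 in excitatory nuclei, whose genotype difference was 0.36 ± 0.13 larger in females on the log2 scale (SE, edgeR adjusted p = 0.772).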

How the data were processed

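Nuclei of 12 cortices were profiled with the ScaleBio Single Cell RNA kit. The authors mapped reads to mm10 and counted with ScaleRna. The deposited values are expected counts per gene and nucleus, in which a UMI shared by several genes was divided among them by the authors, and 92.6% of entries were whole. No normalization had been applied, and the tools the submitters' processing notes name include Seurat 4.3.0 and DESeq2 1.38.3. Columns of other samples numbered 0, and tdTomato was kept out of library sizes. Whether doublets had been removed before deposit is not given in the sources used here.

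The 78743 barcodes held 23425407 to 59947430 UMIs per animal. The study's limits were applied: between 300 and 3000 genes, between 800 and 6000 UMIs, no more than 1% mitochondrial UMIs, and log genes divided by log UMIs no lower than 0.9. They kept 34860 barcodes (44.3%), while 33586 exceeded 6000 UMIs, 15481 exceeded 3000 genes and 43095 lay under the ratio. The paper reports more nuclei of this age after its limits than the 78743 barcodes read here, so the kept nuclei are not its full set. Nuclei in the top 5% of Scrublet scores of their animal, 1748 in all, were removed. Clustering with scanpy 1.11.5 and leidenalg 0.10.2 (3000 variable genes, 50 principal components, 20 neighbours) gave 34 clusters and then 82, named from marker lists when at least 3 markers were raised, the score was high enough and clear of the next type, the leading genes held as many markers of it as of any other type, and transcripts of other classes were low. The other clusters stayed unnamed. Names were rebuilt here and may differ from those of the study. Kept UMIs were 5058817 to 14017619 per animal.

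Counts were summed per animal and class or cell type and rounded. An animal entered a type with 10 or more nuclei, and types with 3 such animals per genotype were tested with edgeR 4.0.16 (TMM, filterByExpr, robust quasi-likelihood, genotype as the only term) in R 4.3.3, with DESeq2 1.42.0 as an alternative. The test was checked on simulated counts. Shares of nuclei were compared by exact permutation over animals, two-sided. Alternatives were another normalization, no filter on low counts, sex as a term, a replicate block, no doublet removal, dropping the upper limits together with the ratio, 30 principal components, members kept in the clustering genes, thinning to 1000 UMIs, rounding down and leaving out each animal. The ratios and exact tests of Slc1a3 and Slc17a7 in all excitatory nuclei, by cluster, at the pooled mix and in nuclei outside the limits were added after seeing the data. All members were read in every broad class. The other named genes are partners of the members from a list of 38 pathway genes, Myt1l and the 3 genes most like each member in pattern, and the values of 2 partners are not reported here. The members and lists were chosen with earlier results of these data known. Replicates are separate animals.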

Additional observations from a re-analysis of the deposited data

Results flagged for a closer look

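In 72 groups of 6 animals, a gap test at the 95% level marked 5 values in which an animal stood apart from the rest of its genotype, where chance marks about 1 group in 20. They came from 3 WT animals, with 3 of the 5 from WT male 2. In WT male 2, Gad1 over all nuclei was 128.8 CPM, against 64.7 to 87.1 CPM in the other WT animals, Slc1a3 in inhibitory nuclei was 58.2 CPM, against 10.8 to 24.4 CPM, and the inhibitory share of nuclei was 32.8%, against 22.1% to 26.0%. This animal also gave 308 Meis2 GABA-like nuclei, a type with 154 CPM of Slc1a3 and 490 CPM of Gad1 on average, where the other WT animals gave 15 to 146, and the part of this in the 3 values was not tested. Slc17a8 in inhibitory nuclei of WT male 1 was 3.68 CPM, against 0.743 to 1.80 CPM. The astrocyte-like share of WT female 1 was 1.10%, against 0.149% to 0.409%.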

How the results depend on the processing

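Where the text says without upper limits, the complexity limit was dropped too. The nuclei this added were not screened for doublets, and each took the cluster of most of its nearest kept nuclei. Among the recomputed fold changes, 1506 were counted as unchanged in direction and side of the threshold, 8 were no longer called, 5 became called and 4 turned direction. Changes of sign where both values were uncalled and within 1 SE of 0 were counted among the 1506 and not as turned. Those 4 were Gad2 in STR D2-like nuclei without the filter on low counts (0.038), Slc1a2 in Lamp5-like (0.15) and Slc6a11 in inhibitory nuclei (0.0005) without upper limits, and Slc6a11 in astrocyte-like nuclei without WT female 1 (0.45, from a range of -0.28 to 0.45 without each animal). Slc17a7 in excitatory nuclei became called at 0.30 without the filter and at 0.29 by DESeq2. Slc1a3 there was no longer called without upper limits (-0.26, adjusted p = 0.324) or with a replicate block (-0.61, adjusted p = 0.117), and ranged from -0.65 to -0.56 without each animal, called in 6 of 12. DESeq2 gave it no adjusted p (-0.60, unadjusted p = 2.78e-05). Members called in excitatory nuclei numbered 2 without the filter, where 168 of 38946 genes were called. They numbered 0 without upper limits, where 57 of 20631 genes were, 0 with the replicate block and 0 to 1 without each animal. In cell types they numbered 1 by DESeq2, 2 without the filter (Slc17a7 in L6 CT-like and Slc1a2 in microglia-like nuclei) and 1 without upper limits. Of all genes in L6 CT-like nuclei, 103 of 2083 were called by DESeq2, 121 of 30017 without the filter and 135 of 11395 without upper limits. In microglia-like nuclei 2 of 15146 were called without the filter. The difference in neurons with both kinds of gene turned to 0.0199 percentage points at 1000 UMIs, and ranged from -0.141 to 0.0212 without each animal, above 0 without WT male 1. By exact permutation, Slc1a3 was at -0.41 (log2) in the 2 clusters with most counts alone and -0.16 outside the limits. The cause of these changes was not tested. Same-numbered animals did not pair: their deviations correlated from -0.55 to 0.24 over 6 pairs, 3 of them under 0, and the block gave Slc17a7 in excitatory nuclei 0.29 (adjusted p = 0.325).

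Levels moved by over 1 SD in 62 of 261 cases without upper limits, in 13 of 261 without doublet removal, in 12 of 252 with 30 principal components and in 13 of 252 with members in the clustering genes. Of levels from 20 CPM, 11, 1, 2 and 4 of these moved by over 1.5 times. Lower levels, such as Slc17a6 in STR-PAL Chst9-like nuclei, are outside this second count. Without upper limits Gad1 over all nuclei was 50.1 CPM instead of 88.6. Cajal-Retzius-like nuclei, with 1 animal, were not compared. The depth limits low members: Slc1a3 in excitatory nuclei rests on 703 counts and Slc17a8 in Sncg-like nuclei on 3 in WT and 21 in Het.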

Other observations

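Slc1a2 divided the L5 NP-like clusters as Slc17a8 did. Pooled over animals it stood at 1021 CPM in the cluster led by Grik1 and Vwc2l and at 264.6 CPM in the cluster led by Gm49906 and Tshz2, and it was found in 93.2% and 52.6% of their nuclei without thinning. Slc17a7 was at 108 CPM ± 28.8 and 95.1 CPM ± 18.6 in these clusters (SD, n = 12 each), which overlap. Among glia, OPC-like nuclei held Slc1a2 in 30.6% and Slc1a3 in 29.4% of nuclei after thinning, with both in 44 nuclei against 43.6 from the product of the single shares within each animal. Meis2 GABA-like nuclei had Slc1a3 in 14.4% and Slc1a2 in 10.2% of nuclei, with both in 26 against 20.3.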
